A study of Homo sapiens with 6 samples.

Results

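The MHC class I antigen presentation genes examined here were HLA-B, HLA-C and HLA-E, which encode class I heavy chains, B2M, which encodes the light chain beta-2-microglobulin, the peptide transporter genes TAP1 and TAP2, the loading factor gene TAPBP, the peptide trimming enzyme gene ERAP1 and the transcriptional activator gene NLRC5. They were chosen by name from a list of the class I heavy chains and their partners, with no measured value in the rule. Earlier results of these data were known when the choice was made. Of these 9 genes, 7 had a row among the 11048 genes of the expression table. HLA-E and TAP1 had no row and have no value here.

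MHC class I molecules show peptides from inside the cell to CD8+ T cells. Proteasomes cut proteins into peptides, the TAP1/TAP2 pump carries these into the endoplasmic reticulum (ER), ERAP1 trims them there, and tapasin, the product of TAPBP, helps to load them onto a heavy chain paired with B2M. Tapasin works in a complex with calreticulin (CALR) and ERp57 (PDIA3), a member of the protein disulfide isomerase family, and the heavy chain itself needs disulfide bonds to fold. NLRC5 drives the heavy chain, B2M and TAP1 promoters together with the RFX and NF-Y factors. Plasma cells and myeloma cells carry class I molecules on their surface.

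The cells were MM1.S, an established human multiple myeloma cell line grown in culture, with no engineered allele named. They received DMSO, the solvent, or 3 µM CCF642 or 3 µM CCF642-34, each for 6 h. CCF642 inhibits the protein disulfide isomerase PDIA1, and CCF642-34 is an analogue of it made to be more soluble and more selective. Each group had 2 libraries of poly(A) RNA, and no source used here says that they came from separate cultures. The p values thus rest on the spread between these libraries, which may be technical. For each gene limma took this spread mostly from other genes of like level (3 residual and 42.9 prior degrees of freedom). All libraries come from 1 cell line, a limit on what they represent. Totals ranged from 20567313 to 28459677 reads per library. Levels are given as scaled CPM, the deposited CPM (the reads of a gene relative to the total of its library) divided by the factor that edgeR's TMM method gave the library. Differences are log2 fold changes of scaled CPM + 1, which understates those of low genes. They were tested with limma over all 11048 genes, two-sided, and a gene was said to rise or fall at a Benjamini-Hochberg adjusted p under 0.05.

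Most members lie in the MHC region on the short arm of chromosome 6, and few genes of that region were in the table. In GENCODE release 29 on GRCh38, HLA-C lies at chr6:31268749-31272130, TAP2 at chr6:32821833-32838780 and TAPBP at chr6:33299694-33314387, all on the reverse strand. HLA-B is annotated on the same strand at chr6:31269491-31357188, a span that runs over HLA-C because of a joined transcript. B2M lies on the forward strand at chr15:44711487-44718877, ERAP1 on the reverse strand at chr5:96760810-96808100 and NLRC5 on the forward strand at chr16:56989485-57083531. Between HLA-F and TAPBP, 29 of 149 protein-coding genes had a row (19.5%), against 482 of 894 on the rest of chromosome 6 (53.9%) and 10877 of all 19931 (54.6%). The bounds of this region were chosen after values had been seen. The listed genes of the region had a median of 5.11 CPM, against 30.7 CPM on the rest of the chromosome, and HLA-B and HLA-C were among the few above 50 CPM. RPS18, a ribosomal protein gene of the region, had 0.899 to 2.12 CPM in the 6 libraries, while 64 of 75 other RPS and RPL genes exceeded 100 CPM. Thus the low levels of TAP2 and TAPBP and the missing rows of HLA-E and TAP1 stood in a region with few and low rows, and the part this plays in their values was not tested. The comparisons between treatments below set a gene against itself in other libraries.

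**Figure D1:**
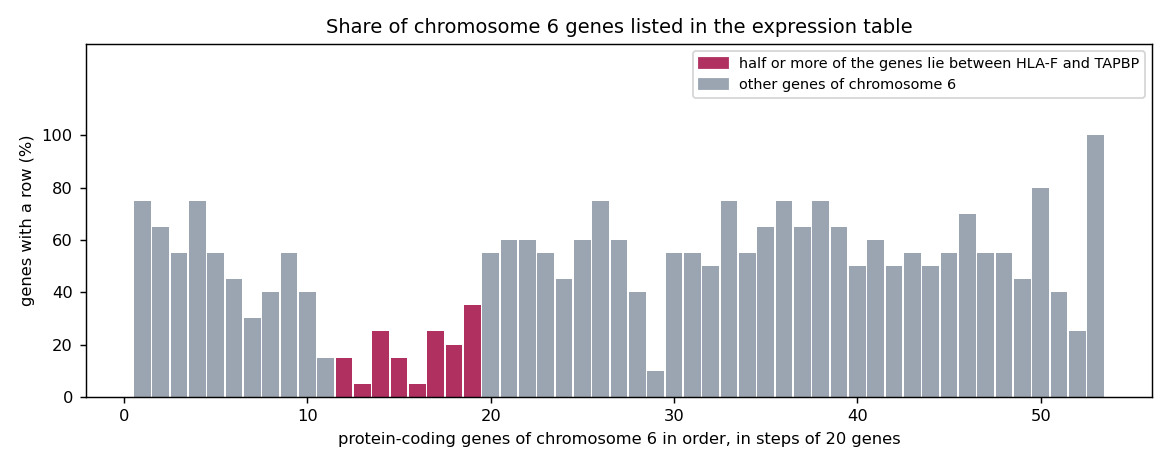
Percent of protein-coding genes that had a row in the expression table, for consecutive steps of 20 genes along chromosome 6 (the last step holds 3 genes). The steps between HLA-F and TAPBP (red) hold 5% to 35%, and most of the other steps (grey) hold more.

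The sequences before the transcription start sites of 4 members are shown because HLA-B and HLA-C are close copies whose levels moved by different amounts with CCF642-34, and because B2M and TAPBP carry further matches for factors that act on class I genes. Each is the 250 bases before the start in RefSeq on GRCh38.p14, written 5′ to 3′ on the strand of the gene, with motif matches on either strand in capitals.
HLA-B, chr6:31357180-31357429, reverse strand: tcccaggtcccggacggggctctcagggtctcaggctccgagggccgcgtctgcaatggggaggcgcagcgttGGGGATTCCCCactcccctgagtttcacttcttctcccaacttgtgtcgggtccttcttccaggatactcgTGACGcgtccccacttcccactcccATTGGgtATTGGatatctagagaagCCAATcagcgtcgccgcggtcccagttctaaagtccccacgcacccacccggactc
HLA-C, chr6:31272093-31272342, reverse strand: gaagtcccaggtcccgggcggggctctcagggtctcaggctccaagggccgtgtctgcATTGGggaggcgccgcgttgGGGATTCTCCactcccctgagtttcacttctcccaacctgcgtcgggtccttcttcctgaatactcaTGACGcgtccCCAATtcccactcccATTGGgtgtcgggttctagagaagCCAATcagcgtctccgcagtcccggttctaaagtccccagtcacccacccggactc
B2M, chr15:44711267-44711516, forward strand: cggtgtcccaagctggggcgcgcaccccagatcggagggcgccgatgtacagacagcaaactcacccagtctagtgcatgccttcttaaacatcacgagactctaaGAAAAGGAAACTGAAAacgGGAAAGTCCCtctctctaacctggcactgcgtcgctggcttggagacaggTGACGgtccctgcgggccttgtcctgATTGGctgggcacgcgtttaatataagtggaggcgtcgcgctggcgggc
TAPBP, chr6:33314079-33314328, reverse strand: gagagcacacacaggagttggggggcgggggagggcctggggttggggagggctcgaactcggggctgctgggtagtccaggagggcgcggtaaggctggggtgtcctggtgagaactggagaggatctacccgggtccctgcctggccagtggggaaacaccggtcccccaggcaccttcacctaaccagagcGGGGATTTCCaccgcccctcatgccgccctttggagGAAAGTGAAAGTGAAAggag
The 4 motifs searched were the core of the interferon-stimulated response element (ISRE), which is GAAA, any 2 bases and GAAA again (bound by IRF factors), CCAAT (bound by NF-Y), TGACG (a part of the CREB/ATF site) and the kappaB motif (bound by NF-kappaB). They occurred in 3.02%, 32.0%, 21.2% and 9.96% of 35116 RefSeq promoters of the same length. HLA-B and HLA-C aligned with 226 identical bases (89.0% of alignment columns), 20 mismatches and 8 gap columns. Both held TGACG, at bases 106 to 102 before the start in HLA-B and 105 to 101 in HLA-C, a kappaB match, and CCAAT, 3 times in HLA-B and 4 times in HLA-C. The exact ISRE core was not in these letters of HLA-B or HLA-C. Looser forms of the element were not searched, so this does not show that these promoters lack one. B2M held 2 overlapping matches of the ISRE core between bases 144 and 129 before its start, beside a CCAAT, a kappaB and a TGACG match. TAPBP held 2 overlapping matches of the ISRE core between bases 20 and 5, and a kappaB match. Of the promoters not shown, that of TAP2 held the ISRE core and TGACG, the first start of ERAP1 held CCAAT and kappaB, and its second start held none of the 4. In all, 6 of the 7 listed members had a promoter entry, and NLRC5 did not. A match describes letters only and is not evidence that a factor was bound.

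The listed class I genes changed by less than 2-fold, and over both compounds not in 1 direction. With CCF642, B2M, TAPBP, ERAP1 and NLRC5 fell and HLA-B, HLA-C and TAP2 did not pass the test, so 0 members rose and 4 of 7 fell. Among all genes 63.1% passed the test in this comparison, 31.8% higher and 31.3% lower. With CCF642-34, HLA-B and HLA-C rose, TAPBP, ERAP1 and NLRC5 fell, and B2M and TAP2 did not pass, against a background of 57.6% of all genes (29.7% higher and 27.9% lower). No member changed by 2-fold with an unadjusted p under 0.05 in any comparison, a criterion met by 6.49% of all genes with CCF642, 3.87% with CCF642-34 and 0.308% between the compounds. The median log2 fold change of the 7 members was -0.30 with CCF642 and 0.02 with CCF642-34, beside -0.01 and 0.01 over all genes. Without regard to sign the medians were 0.30 and 0.18, beside 0.29 and 0.25 over all genes. Both comparisons use the same DMSO libraries. If libraries were scaled by their totals alone, the median over all genes became -0.13 with CCF642 and -0.08 with CCF642-34. The share of calls that were higher then went from 50.4% to 34.8% with CCF642 and from 51.6% to 38.6% with CCF642-34. Of all 11048 genes, 2528 then rose and 4738 fell with CCF642, and 2497 rose and 3972 fell with CCF642-34. All 7 members were then called with CCF642, each of them lower.

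**Figure D2:**
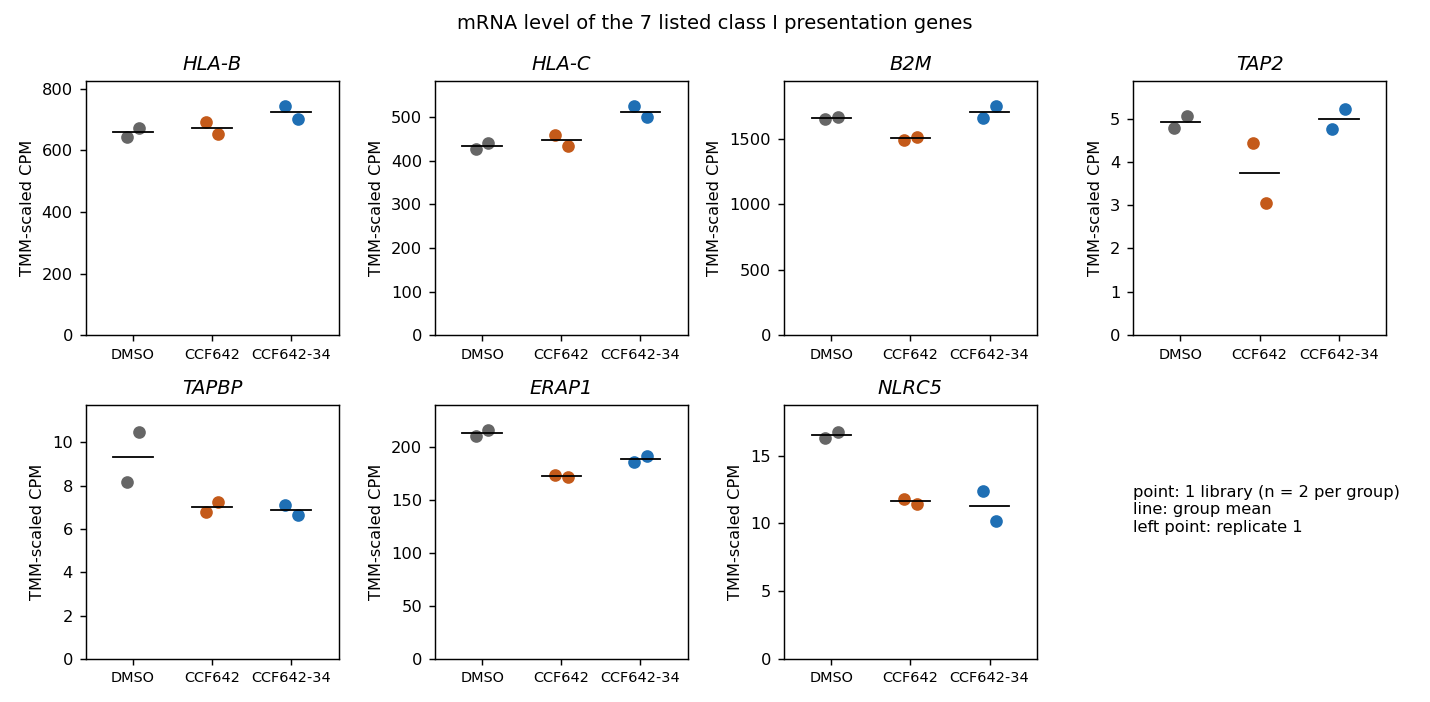
Scaled CPM of each listed member in each library (points, n = 2 per group) with the group mean (line), on axes that start at 0. NLRC5 and ERAP1 lie below DMSO in all 4 treated libraries, while HLA-C lies above it in both CCF642-34 libraries.

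In DMSO the members spanned a wide range of levels per kilobase of the principal transcript. B2M had 973 scaled CPM per kilobase, HLA-B 426, HLA-C 282, ERAP1 38.7, TAPBP 4.94, NLRC5 2.42 and TAP2 1.97. Neighbours in this order did not overlap between the 2 DMSO libraries. HLA-B and HLA-C share long near-identical stretches, and how reads that fit both were counted is not stated, so the split of reads between them is uncertain. TAP2 rested on 66 to 144 reads per library, TAPBP on 134 to 236 and NLRC5 on 234 to 396, whereas the other 4 had at least 3437.

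The heavy chains kept close to their DMSO level with CCF642 and were slightly higher with CCF642-34. HLA-C had 426 and 441 scaled CPM with DMSO, 459 and 435 with CCF642, and 525 and 501 with CCF642-34. Both CCF642-34 libraries lay above all others, and the CCF642 libraries overlapped those with DMSO. As deposited, before scaling, both CCF642 libraries lay below both DMSO libraries, with 442 and 416 CPM against 449 and 465. HLA-C rose with CCF642-34 by 18.2% (log2 fold change 0.24, SE 0.04, limma adjusted p = 1.21e-06), and its difference with CCF642 was 0.04 (95% interval -0.04 to 0.12, limma adjusted p = 0.365). HLA-B had 645 and 672 scaled CPM with DMSO, 692 and 652 with CCF642, and 745 and 702 with CCF642-34. HLA-B rose with CCF642-34 by 9.88% (log2 fold change 0.14, SE 0.04, limma adjusted p = 0.00258), and its difference with CCF642 was 0.03 (95% interval -0.05 to 0.11, limma adjusted p = 0.537). The CCF642-34 libraries lay above DMSO after scaling, but as deposited they overlapped, with 736 and 696 CPM against 679 and 707. The HLA-B call was lost under library totals alone (log2 fold change 0.05, limma adjusted p = 0.309), without DMSO replicate 1 (0.11, limma adjusted p = 0.099) and without CCF642-34 replicate 1 (0.09, limma adjusted p = 0.112). That of HLA-C held in all 16 alternatives, between 0.15 and 0.28.

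Of 5 class I heavy chain genes examined, HLA-B, HLA-C and HLA-F had a row. With CCF642 none of the 3 passed the test (median log2 fold change 0.03), and with CCF642-34 2 rose and 0 fell (median 0.14). Of all genes 63.1% passed with CCF642, and 29.7% rose and 27.9% fell with CCF642-34. HLA-F had 5.99 and 5.42 scaled CPM with DMSO, 6.62 and 4.63 with CCF642, and 6.73 and 4.39 with CCF642-34, so that its groups overlapped. It bounds the region with few and low rows, and the part this plays in its level was not tested. With library totals alone the median of the heavy chains was -0.11 with CCF642, with 2 called lower. It was 0.05 with CCF642-34, with only HLA-C called higher. Of all 11048 genes 4738 were then called lower with CCF642, and 2497 were called higher with CCF642-34.

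The balance between HLA-C and HLA-B does not depend on any scaling, since both are read from the same library. HLA-C had 0.661 and 0.657 reads per read of HLA-B with DMSO, 0.663 and 0.667 with CCF642, and 0.705 and 0.713 with CCF642-34. Both CCF642-34 libraries lay above the other 4, by 0.11 on the log2 scale over DMSO, and the CCF642 libraries were 0.01 over DMSO. With 2 libraries against 2, an exact permutation test cannot go below p = 0.333, so the ratios are given without a test.

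B2M, the light chain shared by all class I molecules, fell with CCF642 and not with CCF642-34. It had 1652 and 1666 scaled CPM with DMSO, 1488 and 1517 with CCF642, and 1660 and 1752 with CCF642-34. The CCF642 libraries lay below the other 4. With CCF642, B2M fell by 9.45% (log2 fold change -0.14, SE 0.03, limma adjusted p = 0.000392), in all 16 alternatives. With CCF642-34 its difference from DMSO was 0.04 (95% interval -0.03 to 0.11, limma adjusted p = 0.342), and it was -0.05 with library totals alone, where both CCF642-34 libraries (1639 and 1737 CPM) lay below DMSO (1741 and 1754 CPM).

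Relative to the heavy chains in its own library, B2M was lower with either compound. It had 1.54 and 1.50 reads per read of HLA-B plus HLA-C with DMSO, 1.29 and 1.40 with CCF642, and 1.31 and 1.46 with CCF642-34. All 4 treated libraries lay below both DMSO libraries, with mean log2 differences of -0.18 for CCF642 and -0.14 for CCF642-34. The second of these moved to -0.06 without CCF642-34 replicate 1 and to -0.22 without CCF642-34 replicate 2.

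**Figure D3:**
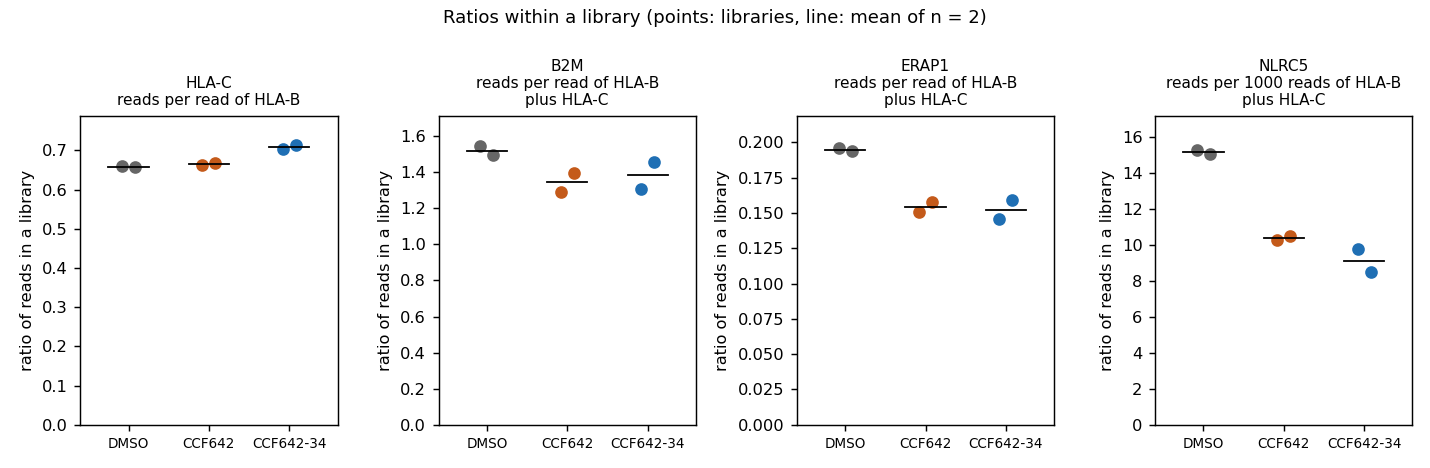
Ratios of reads within each library (points, n = 2 per group, line at the mean, axes from 0). HLA-C per read of HLA-B is highest in both CCF642-34 libraries, and B2M, ERAP1 and NLRC5 per read of HLA-B plus HLA-C are below DMSO in all 4 treated libraries.

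Of the peptide transport and loading members, TAPBP was lower with either compound and TAP2 did not pass the test. TAPBP had 8.17 and 10.5 scaled CPM with DMSO, 6.77 and 7.26 with CCF642, and 7.12 and 6.64 with CCF642-34. No treated library reached the lower DMSO library, but the DMSO pair was wide apart. TAPBP fell by 0.36 on the log2 scale with CCF642 (SE 0.14, limma adjusted p = 0.0258) and by 0.38 with CCF642-34 (SE 0.14, limma adjusted p = 0.0190). Without DMSO replicate 2 the differences were -0.20 (limma adjusted p = 0.378) and -0.22 (limma adjusted p = 0.331). The calls were also lost in the DESeq2 Wald test (adjusted p = 0.0808 and 0.0535), without CCF642 replicate 1 for CCF642 (-0.31, limma adjusted p = 0.0876) and without CCF642-34 replicate 2 for CCF642-34 (-0.34, limma adjusted p = 0.120). TAP2 had 4.79 and 5.06 scaled CPM with DMSO, 4.45 and 3.05 with CCF642, and 4.77 and 5.22 with CCF642-34. Its difference from DMSO was -0.33 with CCF642 (95% interval -0.67 to 0.003, limma adjusted p = 0.0791) and 0.02 with CCF642-34 (-0.32 to 0.35, limma adjusted p = 0.939). The first passed the test with library totals alone (-0.44, limma adjusted p = 0.0193) and without CCF642 replicate 1 (-0.55, limma adjusted p = 0.0101), and was -0.12 without CCF642 replicate 2. TAP2 shares 32.3% of its exon bases with the readthrough gene AL669918.1, which had no row.

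The ER chaperone genes PDIA3, CANX and CALR rose with CCF642-34, and UGGT1, which encodes a sensor of glycoprotein folding, did not pass the test with it (-0.04, limma adjusted p = 0.409). CALR and UGGT1 were picked after their values were seen. Of 9 assembly and loading genes, 8 had a row. With CCF642, 1 rose, 3 fell and 4 did not pass (median log2 fold change -0.11). With CCF642-34, 3 rose, 1 fell and 4 did not pass (median 0.03). Over all genes 31.8% rose and 31.3% fell with CCF642, and 29.7% rose and 27.9% fell with CCF642-34. With library totals alone 0 rose and 6 fell with CCF642, and 2 rose and 3 fell with CCF642-34. So scaled, 2528 of all 11048 genes rose and 4738 fell with CCF642, and 2497 rose and 3972 fell with CCF642-34. PDIA3, which encodes ERp57, had 532 and 545 scaled CPM with DMSO, 586 and 607 with CCF642, and 638 and 663 with CCF642-34. It rose by 0.15 with CCF642 (limma adjusted p = 0.000722) and by 0.27 with CCF642-34 (limma adjusted p = 2.79e-08), but with library totals alone by 0.18 with CCF642-34 only and not with CCF642 (0.01, limma adjusted p = 0.764). CANX, which encodes the lectin chaperone calnexin, rose by 0.23 with CCF642-34 (limma adjusted p = 3.28e-07) and differed by 0.06 with CCF642 (limma adjusted p = 0.138). CALR rose by 0.10 with CCF642-34 (limma adjusted p = 0.0166), which was 0.01 with library totals alone, and differed by -0.07 with CCF642 (limma adjusted p = 0.0768). TAPBPL, which encodes the tapasin-related editor TAPBPR, fell by 0.24 with CCF642 (limma adjusted p = 0.00574) and differed by -0.17 with CCF642-34 (limma adjusted p = 0.0530).

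**Figure D4:**
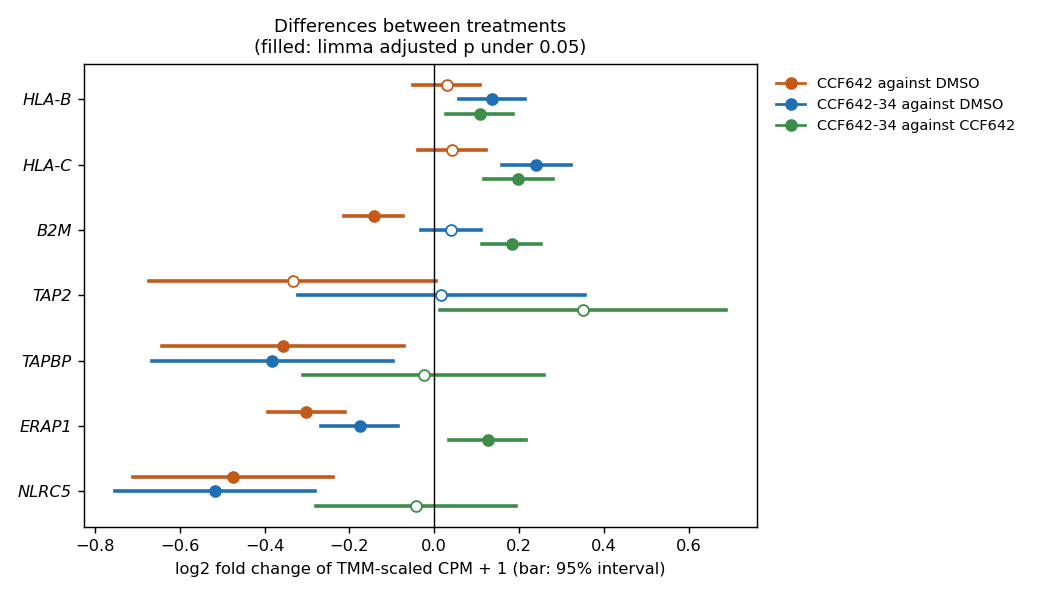
Log2 fold change of each listed member in the 3 comparisons, with 95% intervals as bars, and filled points at a limma adjusted p under 0.05. Intervals of TAP2, TAPBP and NLRC5 are wider than those of the 4 genes with more reads.

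ERAP1, which trims peptides in the ER, fell with both compounds. It had 210 and 215 scaled CPM with DMSO, 174 and 171 with CCF642, and 185 and 191 with CCF642-34. The 3 groups did not overlap. ERAP1 fell by 18.9% with CCF642 (log2 fold change -0.30, SE 0.05, limma adjusted p = 1.28e-07) and fell by 11.5% with CCF642-34 (-0.18, SE 0.05, limma adjusted p = 0.000885), in all 16 alternatives of each comparison. Per read of HLA-B plus HLA-C it went from 0.196 and 0.194 with DMSO to 0.151 and 0.158 with CCF642 and 0.146 and 0.159 with CCF642-34. ERAP1 shares 3.76% of its exon bases with CAST on the opposite strand, and whether the counting used strand is not stated.

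Among 11 peptidase genes, 10 had a row. With either compound 2 rose, 5 fell and 3 did not pass, with median log2 fold changes of -0.10 for CCF642 and -0.14 for CCF642-34. Among all genes 31.8% rose and 31.3% fell with CCF642, and 29.7% rose and 27.9% fell with CCF642-34. ERAP2, the ER partner of ERAP1, had 156 and 137 scaled CPM with DMSO, 100 and 101 with CCF642, and 104 and 108 with CCF642-34. It fell by 0.53 with CCF642 (limma adjusted p = 7.81e-12) and by 0.46 with CCF642-34 (limma adjusted p = 7.29e-10). LNPEP, which encodes the endosomal aminopeptidase IRAP, fell by 0.25 with CCF642 (limma adjusted p = 0.00955) and 0.43 with CCF642-34 (limma adjusted p = 3.41e-05). Among the cytosolic enzymes, IDE rose by 0.45 with CCF642 (limma adjusted p = 2.14e-10) and 0.39 with CCF642-34 (limma adjusted p = 1.41e-08), and LAP3 by 0.14 with CCF642 (limma adjusted p = 0.00637) and 0.18 with CCF642-34 (limma adjusted p = 0.000861). With library totals alone IDE rose, LAP3 was not called and 8 of the 10 fell, with each compound. Under that scaling 4738 of all 11048 genes fell with CCF642 and 3972 with CCF642-34.

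Of 6 genes of the immunoproteasome and the PA28 family, PSMB8 and PSMB9, which lie in the MHC region, had no row. Of the other 4, 0 rose and 3 fell with CCF642 (median log2 fold change -0.20), and 1 rose and 1 fell with CCF642-34 (median -0.06). The shares of all genes were 31.8% higher and 31.3% lower with CCF642, and 29.7% and 27.9% with CCF642-34. Under library totals alone 0 rose and 4 fell with CCF642, and 0 rose and 3 fell with CCF642-34 (median -0.15). In that fit 4738 of all 11048 genes fell with CCF642 and 3972 with CCF642-34. PSMB10, the remaining catalytic subunit, had 99.0 and 101 scaled CPM with DMSO, 102 and 93.9 with CCF642, and 117 and 107 with CCF642-34. PSMB10 rose by 0.16 with CCF642-34 (limma adjusted p = 0.0138), which was 0.07 with library totals alone (limma adjusted p = 0.294), and differed by -0.03 with CCF642 (limma adjusted p = 0.632). Of the PA28 genes, PSME2 fell by 0.29 with CCF642 (limma adjusted p = 7.54e-05). PSME3, which encodes the separate nuclear form PA28 gamma, fell by 0.30 with CCF642 (limma adjusted p = 4.39e-08) and 0.28 with CCF642-34 (limma adjusted p = 3.99e-07).

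NLRC5, the class I transactivator, fell with both compounds, while HLA-B and HLA-C were called lower only with CCF642 and only under library totals. It had 16.3 and 16.7 scaled CPM with DMSO, 11.8 and 11.4 with CCF642, and 12.4 and 10.2 with CCF642-34. All 4 treated libraries lay below DMSO. NLRC5 fell by 28.0% with CCF642 (log2 fold change -0.47, SE 0.12, limma adjusted p = 0.000474) and fell by 30.1% with CCF642-34 (-0.52, SE 0.12, limma adjusted p = 0.000189), in all 16 alternatives of each comparison. Per 1000 reads of HLA-B plus HLA-C, NLRC5 had 15.3 and 15.0 reads with DMSO, 10.3 and 10.5 with CCF642, and 9.78 and 8.48 with CCF642-34. With library totals alone HLA-B and HLA-C were themselves lower with CCF642, by far less than NLRC5 (-0.11 and -0.09 against -0.60).

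The listed regulators of class I promoters moved in both directions. All 20 genes of this list had a row. They include coactivators (CREBBP, EP300 and KAT2B) and subunits of a silencing complex (EZH2, EED and SUZ12), so the counts pool activators with repressors. With CCF642, 8 rose, 8 fell and 4 did not pass (median log2 fold change 0.04), and with CCF642-34, 6 rose, 9 fell and 5 did not pass (median -0.10). Over all genes 31.8% rose and 31.3% fell with CCF642, and 29.7% and 27.9% with CCF642-34. When libraries were scaled by totals alone, 6 rose and 10 fell with CCF642, and 6 rose and 11 fell with CCF642-34. Among all 11048 genes 2528 then rose and 4738 fell with CCF642, and 2497 rose and 3972 fell with CCF642-34. CIITA, the class II counterpart of NLRC5, had 20.3 and 22.7 scaled CPM with DMSO, 9.04 and 8.10 with CCF642, and 9.29 and 8.96 with CCF642-34. It fell by 1.23 with CCF642 (limma adjusted p = 1.35e-12) and 1.15 with CCF642-34 (limma adjusted p = 1.52e-11), and was the 1 gene of the list to change by 2-fold with each compound. IRF1, an activator that binds interferon-stimulated response elements, had 96.7 and 95.5 scaled CPM with DMSO, 173 and 167 with CCF642, and 170 and 172 with CCF642-34. IRF1 rose by 0.82 with CCF642 (limma adjusted p = 7.19e-20) and 0.82 with CCF642-34 (limma adjusted p = 9.26e-20). IRF2, which competes with IRF1 for the same sites, fell by 0.52 with CCF642 (limma adjusted p = 5.39e-11) and 0.43 with CCF642-34 (limma adjusted p = 1.15e-08).

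RELA, the p65 subunit of NF-kappaB, rose by 0.83 with CCF642 (limma adjusted p = 7.63e-21) and 0.58 with CCF642-34 (limma adjusted p = 4.15e-15). NFYB, a subunit of the CCAAT-binding factor, fell by 0.79 with CCF642 (limma adjusted p = 9.90e-10) and 0.80 with CCF642-34 (limma adjusted p = 1.05e-09). RFX5, the DNA-binding partner of NLRC5 and CIITA, fell by 0.14 with CCF642 (limma adjusted p = 0.0113) and differed by -0.11 with CCF642-34 (limma adjusted p = 0.0538). The directions of CIITA, IRF1, IRF2, RELA, NFYB and RFX5 were the same with library totals alone, where RFX5 also fell with CCF642-34 (-0.20, limma adjusted p = 0.000549).

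**Figure D5:**
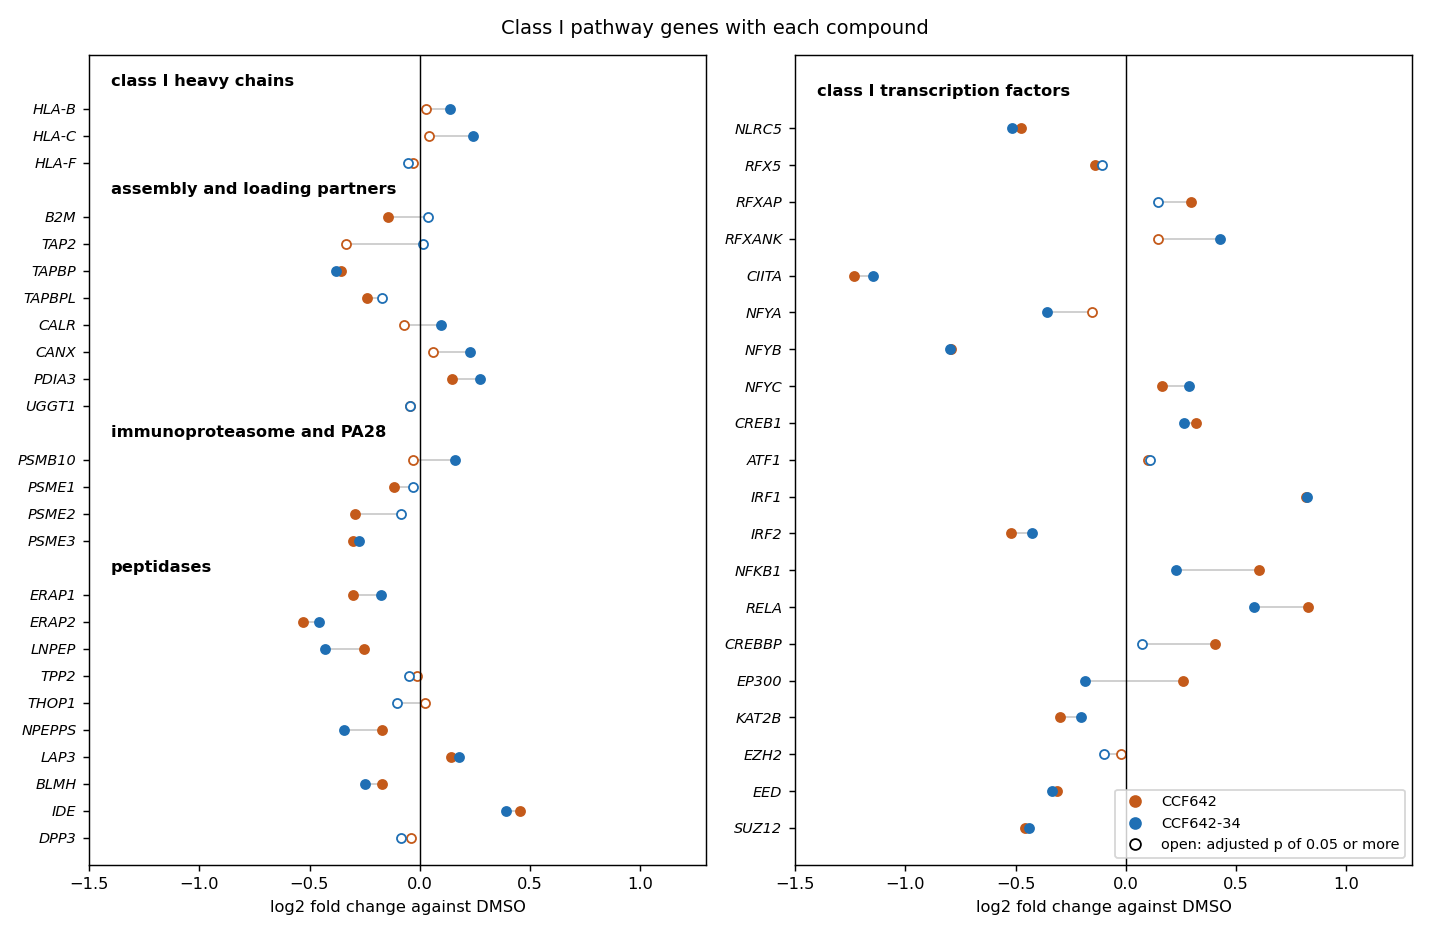
Log2 fold change against DMSO of the listed genes of 5 class I groups, with CCF642 (orange) and CCF642-34 (blue). Points are filled at a limma adjusted p under 0.05, and both compounds share the DMSO libraries. IRF1 and RELA lie to the right with each compound and NLRC5, CIITA, NFYB and ERAP2 to the left.

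The interferon pathway that controls these genes was also split. All 10 receptor and signal carrier genes examined had a row, of which 4 rose and 3 fell with CCF642, and 4 rose and 5 fell with CCF642-34. The background over all genes was 31.8% higher and 31.3% lower with CCF642, and 29.7% and 27.9% with CCF642-34. IFNGR1, the ligand-binding chain of the interferon gamma receptor, had 28.9 and 31.3 scaled CPM with DMSO, 73.4 and 67.2 with CCF642, and 63.8 and 65.8 with CCF642-34. It rose by 1.20 with CCF642 (limma adjusted p = 2.06e-20) and 1.08 with CCF642-34 (limma adjusted p = 1.38e-18). IFNAR2 and IFNAR1, the chains of the type I interferon receptor, fell by 0.73 and 0.48 with CCF642 (limma adjusted p = 7.69e-18 and 8.15e-14) and by 0.58 and 0.25 with CCF642-34 (limma adjusted p = 3.04e-14 and 3.22e-06). SOCS1, a feedback inhibitor of the receptors, rose by 1.46 with CCF642 (limma adjusted p = 9.47e-11) and 0.67 with CCF642-34 (limma adjusted p = 0.000478). STAT2 fell by 0.25 with CCF642-34 (limma adjusted p = 2.39e-06).

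Of 15 interferon-induced genes, 11 had a row, of which 4 rose and 3 fell with CCF642, and 3 rose and 4 fell with CCF642-34 (medians -0.004 and -0.24). For all genes the shares were 31.8% and 31.3% with CCF642, and 29.7% and 27.9% with CCF642-34. The 4 that rose with CCF642 include IFIT3. It had 0.52 and 0.56 CPM with DMSO, 0.92 and 3.10 with CCF642, and 0.25 and 0.29 with CCF642-34. An earlier filter on low genes would have kept IFIT3 only through CCF642 replicate 2, so its rise is not read as a result. Under library totals alone 5 fell with CCF642, where 4738 of all 11048 genes fell, and the other counts were equal. GBP1, an interferon-induced GTPase, had 54.7 and 59.3 scaled CPM with DMSO, 19.3 and 16.2 with CCF642, and 15.0 in both CCF642-34 libraries. GBP1 fell by 1.63 with CCF642 (limma adjusted p = 1.21e-20) and 1.86 with CCF642-34 (limma adjusted p = 1.45e-22), and GBP4 fell by 1.43 (limma adjusted p = 1.34e-09) and 0.99 (limma adjusted p = 4.97e-06). CXCL10, an interferon-induced chemokine, fell by 1.09 with CCF642-34 (limma adjusted p = 9.83e-06). WARS rose by 1.09 with CCF642 (limma adjusted p = 1.53e-21) and 1.21 with CCF642-34 (limma adjusted p = 4.56e-23). It encodes the tryptophan tRNA synthetase and is also known as a target of the amino acid and ER stress response. IFI35 rose by 0.74 (limma adjusted p = 9.47e-12) and 0.85 (limma adjusted p = 2.36e-13).

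The compounds were compared directly at the same dose and time, over 1 pair of compounds. HLA-B, HLA-C, B2M and ERAP1 were higher with CCF642-34 than with CCF642, 0 members were lower and 3 did not pass, and 33.4% of all genes passed in this comparison (15.9% higher and 17.4% lower). The largest of these 4 differences was that of HLA-C, at 0.20 on the log2 scale (95% interval 0.12 to 0.28, limma adjusted p = 0.000108), followed by B2M at 0.18 (0.11 to 0.25, limma adjusted p = 4.82e-05). These held in all 16 alternatives. ERAP1 was higher by 0.13 (0.03 to 0.22, limma adjusted p = 0.0280) and HLA-B by 0.11 (0.03 to 0.19, limma adjusted p = 0.0295). Both were called in 10 of 16 alternatives, and without CCF642 replicate 2 the difference of HLA-B was 0.06 (limma adjusted p = 0.213). Leaving out 1 library left the difference of ERAP1 at 0.105 to 0.149 and that of HLA-B at 0.0638 to 0.152. Some of these fits called fewer members than the main fit, and each called fewer of all genes.

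NLRC5 and TAPBP did not differ detectably between the compounds, with -0.04 (95% interval -0.28 to 0.19) for NLRC5 and -0.03 (-0.31 to 0.26) for TAPBP, intervals that allow differences of about the size seen for HLA-C. The difference of TAP2 was 0.35 (0.01 to 0.69), with a limma adjusted p of 0.103. It passed the test without CCF642 replicate 1 (0.57, limma adjusted p = 0.0161). The median difference of the 7 members was 0.13, beside 0.01 over all genes. Among the partners, PDIA3, CANX and CALR were also higher with CCF642-34, by 0.13, 0.17 and 0.17 (limma adjusted p = 0.00853, 0.000200 and 0.000190). With library totals alone the share of calls that were higher in this comparison went from 47.8% to 61.8%.

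The gene outside the 9 whose 6 library values lay closest to those of each member was found by the root mean square difference of log2 values from the DMSO mean, among 8417 genes with a mean of at least 10 CPM. HLA-C lay closest to RPLP2 (0.0147) and HLA-B to RPL11 (0.0180), both ribosomal protein genes. B2M lay closest to PIGC (0.0183), ERAP1 to SLC2A1 (0.0251), NLRC5 to RGS12 (0.0256), TAPBP to IQCE (0.0519) and TAP2 to HAGH (0.0560). With 6 libraries in 3 groups such likeness is a description only.

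The labelled cell type was checked against marker genes. All 10 plasma cell genes had a row, and summed to 9904 to 10000 CPM with DMSO, 7020 to 7054 with CCF642 and 7866 to 7911 with CCF642-34. Of these 10 genes, 4 rose and 6 fell with CCF642, where 31.8% of all genes rose and 31.3% fell. With CCF642-34, 2 rose and 6 fell, against 29.7% and 27.9% of all genes. SDC1 (CD138), a plasma cell surface marker, fell by 1.67 with CCF642 (limma adjusted p = 2.29e-35) and 1.12 with CCF642-34 (limma adjusted p = 6.01e-28). IRF4 rose by 0.90 with CCF642 (limma adjusted p = 8.11e-27) and 1.11 with CCF642-34 (limma adjusted p = 2.38e-30). Monocyte genes had no row (0 of 4), 1 of 4 T cell genes reached 3.19 CPM at most, 2 of 5 epithelial genes summed to at most 3.00 CPM and 1 of 4 erythroid genes reached 4.86 CPM. Of the fibroblast genes COL1A1 alone had a row, with 1.09 to 1.50 CPM with DMSO, 8.99 to 10.5 with CCF642 and 2.74 to 3.53 with CCF642-34. In bulk RNA, fewer cells of a type and less RNA per cell cannot be told apart.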

How the data were processed

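The authors deposited 1 table of CPM values for each of 6 libraries, with 11048 gene symbols each; the labels' processing notes name STAR, edgeR 3.24.3, limma 3.38.3 and hg19, and the counting tool and annotation are not given in the sources used here. RNA was purified with the NucleoSpin kit, poly(A) RNA was selected and cDNA was primed with random hexamers. All values (100%) were whole multiples of 1 read within 0.001 reads, so reads were recovered, and the listed genes held 99.9% of them. Every gene reached 1.50 CPM in at least 1 library, which points to an earlier filter on low genes. A further table with all libraries repeated these values and was not used.

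From the CPM, log2(TMM-scaled CPM + 1) was computed (edgeR 4.0.16) and 3 comparisons were tested in limma 3.58.1 (R 4.3.3, trend), with 3 groups in 1 fit (3 residual degrees of freedom, prior 42.9), no replicate block and no filter. The limma steps were tested on simulated data. The members and gene lists were chosen with earlier results of these data known. Genes were named by a rule that takes all members, the 2 most raised and 2 most lowered called genes of each list with each compound, IRF1, IRF2, RFX5 and the PSMB genes, and the nearest gene to each member (some genes it gives are not described). CALR, CD74, UGGT1, HLA-F, CAST and RPS18 fall outside that rule and were named after values were seen. Alternatives were DESeq2 1.42.0 (size factors, Wald test), edgeR's quasi-likelihood test, voom, library totals alone, pseudocounts of 0.1 and 4, a mean of 5 CPM, 2 groups alone, a replicate block and leaving out each library. Ratios without a library were added after seeing the data. Gene positions came from GENCODE release 29, promoters from RefSeq, both on GRCh38. Some items are not reported here.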

Additional observations from a re-analysis of the deposited data

How the results depend on the processing

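Of the members called, HLA-C, ERAP1 and NLRC5 (each compound that changed them), and B2M with CCF642, kept direction and threshold in all 16 alternatives. Library totals in place of TMM gave 7 members called with CCF642, against 4 in the main fit and 3 with the DESeq2 Wald test. Over all genes these fits called 7266, 6974 and 6212. Library totals also reversed HLA-B (-0.105) and HLA-C (-0.0916) with CCF642, B2M (-0.0505) and TAP2 (-0.0583) with CCF642-34, and TAPBP (0.0136) between compounds. Between compounds 4 members were called, but 2 with the DESeq2 Wald test and 2 when only those groups were fitted. The calls over all genes in these fits were 3685, 2840 and 3265. Each library was also left out, where the lone library of a group is assumed to vary like the others. This changed the number of all genes called, and in some fits that of members. The log2 fold change then ranged from -0.0143 to 0.0722 for HLA-B with CCF642 (-0.000821 without DMSO replicate 1), from -0.0366 to 0.0716 for TAP2 with CCF642-34 (-0.0163 without DMSO replicate 1), and, between compounds, from -0.0695 to 0.0208 for TAPBP (0.0193 without CCF642 replicate 2) and from -0.173 to 0.0905 for NLRC5. None of these members passed the test in the comparison named. The cause of each change was not tested, except that library totals shift all genes. At a mean of 5 CPM TAP2 was not tested. The edgeR test called 4, 5 and 4 members in the 3 comparisons, and 6932, 6440 and 3724 of all genes.

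With the replicate number as a block, 4 members were called with CCF642, 5 with CCF642-34 and 4 between compounds, and 7014, 6422 and 3802 genes in all, against 6974, 6362 and 3685 without it. The block changed no call of a member. Deviations from the group means correlated between libraries of the same number by -0.0272, -0.0575 and 0.0701 over 10311 genes, so the numbers were not taken to pair the libraries. Depth limits TAP2, TAPBP and NLRC5, which had at most 396 reads in a library.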

Other observations

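Class I-like molecules and class II genes were read from the same fit. Of 18 genes of class I-like molecules and ligands of the natural killer cell receptor NKG2D, 5 had a row. ULBP1, an NKG2D ligand, had 0.29 and 0.09 scaled CPM with DMSO, 2.63 and 2.54 with CCF642, and 3.06 and 2.25 with CCF642-34. All 4 treated libraries lay above DMSO, by 1.60 with CCF642 and 1.62 with CCF642-34 on the log2(scaled CPM + 1) scale. Every listed gene reached 1.50 CPM in at least 1 library, and ULBP1 did so only in treated libraries. An earlier filter on low genes would thus have kept ULBP1 only through the groups where it is high, so no p value is given. MR1, which presents vitamin metabolites to T cells, fell by 0.44 with CCF642 (limma adjusted p = 1.48e-07) and 0.43 with CCF642-34 (limma adjusted p = 3.05e-07). AZGP1 fell by 0.74 with CCF642-34 (limma adjusted p = 0.00260). Of 12 class II genes 5 had a row, and HLA-DPB1 was the 1 gene to pass the test, falling by 0.55 with CCF642 (limma adjusted p = 0.00268). Over all genes 63.1% passed with CCF642 and 57.6% with CCF642-34. When libraries were scaled by totals alone, 3 of the 5 were called lower with CCF642 and 1 with CCF642-34, CD74 both times. That scaling called 4738 of all 11048 genes lower with CCF642 and 3972 with CCF642-34. CD74, the class II invariant chain gene, which lies outside the MHC region, had 1027 and 1025 scaled CPM with DMSO and differed by -0.07 with CCF642 (limma adjusted p = 0.0713) and -0.01 with CCF642-34 (limma adjusted p = 0.746), which became -0.21 and -0.11 with library totals alone (limma adjusted p = 1.54e-06 and 0.00904).

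Of 14 genes of class I turnover and ER degradation, 10 had a row, of which 4 rose and 3 fell with CCF642, and 7 rose and 1 fell with CCF642-34. Among all genes 31.8% rose and 31.3% fell with CCF642, and 29.7% and 27.9% with CCF642-34. Under library totals alone 3 rose and 3 fell with CCF642, and 3 rose and 2 fell with CCF642-34. The counts among all 11048 genes were then 2528 higher and 4738 lower with CCF642, and 2497 and 3972 with CCF642-34. SYVN1, the ER ubiquitin ligase, rose by 0.71 (limma adjusted p = 6.38e-21) and 0.46 (limma adjusted p = 4.22e-14), and its partner SEL1L by 0.56 (limma adjusted p = 3.86e-18) and 0.45 (limma adjusted p = 1.20e-14). TMEM129, a ligase used by a viral protein to degrade class I, fell by 0.45 with CCF642 (limma adjusted p = 5.77e-08) and 0.15 with CCF642-34 (limma adjusted p = 0.0471).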
